A study of Mus musculus with 10 samples.

Results

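DNA replication machinery is described here as 39 genes whose products load, start, run and finish the copying of DNA in S phase of the cell cycle. They were picked by name from the 35006 gene rows of the deposited count tables, and all 39 had a row. The list covers 10 roles, from the MCM helicase and its loaders to the enzymes that make DNA building blocks and the proteins that repack DNA into chromatin. Cells license origins by loading the MCM ring before S phase, fire those origins during S phase and let the machinery fall silent once they leave the cycle. Transcription factors of the E2F family, held back by the pocket proteins RB, p107 and p130, drive many of these genes. In the small intestine, copying of DNA is known as a feature of the crypt, where stem cells and transit-amplifying cells divide, while Paneth, goblet, enteroendocrine and tuft cells and mature enterocytes have left the cycle.

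The cells came from small intestinal crypts of EF1a-OSCAR mice (C57BL6/J), sorted as live EpCAM+ cells, and 10000 cells of each population went into each library. All populations carried the same reporter, which sits in Rosa26 behind the EF1a promoter and a stop cassette that a Vasa-Cre removed in the germline. It couples mCherry to VeN90, a Venus protein whose fluorescence falls when the kinase CDK9 phosphorylates it, so a high OSCAR ratio marks low CDK9 activity. The labels define P1 as OSCARlow EF1alow, P2 as OSCARhigh EF1alow, P3 as OSCARlow EF1ahigh, P4 as OSCARmed EF1alow and P5 as OSCARmed EF1ahigh. Each population was sequenced in 2 replicates after poly-A selection, 10 libraries in all. A population is therefore a window on the reporter and not a cell type. The age of the mice is not given in the sources used here.

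Levels are given as CPM, read counts scaled to the effective library size, first for replicate 1 and then for replicate 2. Counts on genes totalled 3857612 to 6485823 per library, and 1791 to 19967 of them belonged to the 39 replication genes, and every one of the 39 was detected in every library. The lowest count was 2, for Cdc6 in P2 replicate 1, and 9 of the 39 genes had fewer than 10 counts in some library, so their values in those libraries are coarse. The libraries labelled P2 carried most of the secretory markers. The 5 Paneth genes summed to 557180 and 394620 CPM there and to 3354 and 1774 CPM in P3, whereas the study's text places secretory cells in P3. The labels P2 and P3 may thus be exchanged in one of the sources. No library was renamed, P1 to P5 below mean the libraries so labelled, and the reporter state given for P2 and P3 is that of the label. The libraries labelled P3 stood apart in another way, with 59.2% and 36.1% of counts on mitochondrial genes against 1.04% to 5.19% in the other libraries. The 2 P3 libraries also differed from each other, as described below. All 5 epithelial markers were detected in every library, with a sum between 3774 and 9989 CPM. The stem cell genes summed to 4026 and 6267 CPM in P4 and 3572 and 6133 in P5, against 456 to 877 CPM in the other libraries except P3 replicate 2 at 2565. Most of that sum is Olfm4, and Lgr5, the stem cell receptor, was at 80.5 and 81.2 CPM in P2, near the 94.6 and 114.8 in P4, and at 10.5 and 9.702 in P1. In such bulk samples, fewer cells of a type and less RNA per cell cannot be told apart.

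The replication genes were low in P2, intermediate in P1 and high in P4 and P5. Their summed level was 684 and 711 CPM (P1), 603 and 539.5 (P2), 951 and 2094 (P3), 1561 and 1981 (P4) and 1375 and 1970 (P5). Rfc1 made up 269 and 231 CPM of the P2 sums, and without it the sums were 666 and 669.9 CPM in P1, 333 and 308 in P2, and 1497 and 1912 in P4. P2 held the lowest mean of the 5 populations for 34 of the 39 genes and P1 for the other 5, namely Prim2, Pold1, Pold2, Rfc1 and Chaf1b. The highest mean was in P4 for 15 genes, in P5 for 13, in P3 for 8, in P1 for Gmnn and Gins4, and in P2 for Rfc1 alone. The highest and lowest population means differed 6.03-fold in the median gene, from 1.66-fold for Slbp to 19.7-fold for Mcm5. With one edgeR quasi-likelihood test per gene over the 5 populations, 23 of the 39 genes passed an adjusted p under 0.01 (36.3% of all 13706 genes tested passed). The 2 libraries of a population are the only replicates. Each p-value sets differences between population means against a spread estimated from all 5 populations together.

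**Figure D1:**
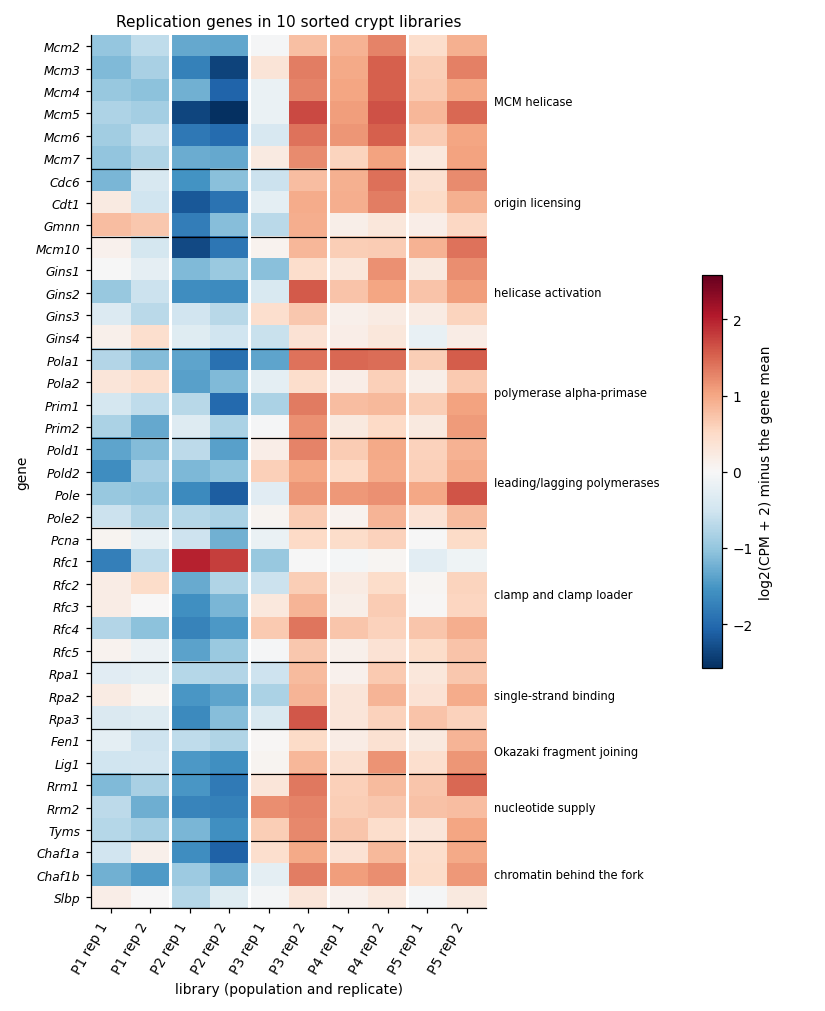
Each row is 1 of the 39 replication genes, grouped by role, and each column 1 library. Colour gives log2(CPM + 2) minus the mean of that gene over the 10 libraries, and the P2 columns are the bluest in 34 rows by population mean, while Rfc1 in the clamp loader block is reddest there.

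The genes went up and down together across libraries. Over the 10 libraries, the correlation of log2 levels had a median of 0.86 over the 741 gene pairs, and 704 pairs were above 0. Mcm5 followed the mean of the other 38 genes most closely (Pearson r = 0.996, n = 10 libraries), and Rfc1 was the only gene below 0 (r = -0.44), with Gins4 (0.57) and Gmnn (0.68) next. The libraries share their scaling and fall into populations, so these values describe the pattern and were not tested. The genes lie on 15 chromosomes, 8 of them on chromosome 5 and 5 on chromosome 8 (mm9).

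RefSeq promoter windows, 250 bases before to 50 after the annotated start (GRCm38.p6), were matched to 31 of the 39 genes. The windows were searched on both strands for 4 E2F-type words, TTTCCCGC, TTTGGCGC, TTTCGCGC and TTTGCCGC, which is how many E2F sites in replication genes read. At least 1 word was found for 12 of the 31 genes (38.7%), against 704 of all 27025 genes with a window (2.6%). They were Mcm3, Mcm5, Mcm6, Mcm7, Cdc6, Cdt1, Gins3, Pola1, Pold1, Pole2, Rfc3 and Lig1. CCAAT, a common promoter word, was found for 20 of the 31 genes (64.5%), against 41.1% of all genes. The 200 bases before the start are shown for Mcm5 and Mcm6, the helicase genes with overlapping words on both strands, for Cdc6 and Pola1, which had 1 word each and were among the genes furthest apart between P4 and P1, and for Rfc1, which went against the rest and had no word in its window. Capitals mark the E2F-type words, and overlapping words run together.
Mcm5 (chr8:75109309-75109508, plus strand, GRCm38.p6): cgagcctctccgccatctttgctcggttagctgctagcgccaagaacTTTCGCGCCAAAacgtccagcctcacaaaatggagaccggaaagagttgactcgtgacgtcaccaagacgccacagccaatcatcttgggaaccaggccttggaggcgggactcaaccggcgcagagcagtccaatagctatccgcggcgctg
Mcm6 (chr1:128359706-128359905, minus strand, GRCm38.p6): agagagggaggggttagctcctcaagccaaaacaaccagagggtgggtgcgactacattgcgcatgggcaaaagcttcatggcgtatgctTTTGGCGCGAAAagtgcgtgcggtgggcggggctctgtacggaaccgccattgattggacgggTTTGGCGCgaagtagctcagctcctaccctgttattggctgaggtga
Cdc6 (chr11:98907951-98908150, plus strand, GRCm38.p6): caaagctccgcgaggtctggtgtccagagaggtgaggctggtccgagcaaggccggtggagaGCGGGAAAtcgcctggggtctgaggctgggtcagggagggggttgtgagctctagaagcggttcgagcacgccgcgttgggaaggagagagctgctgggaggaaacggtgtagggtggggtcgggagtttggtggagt
Pola1 (chrX:93632156-93632355, minus strand, GRCm38.p6): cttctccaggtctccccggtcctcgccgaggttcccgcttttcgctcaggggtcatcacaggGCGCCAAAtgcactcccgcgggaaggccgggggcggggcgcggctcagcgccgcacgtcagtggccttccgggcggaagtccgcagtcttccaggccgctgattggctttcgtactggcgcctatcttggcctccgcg
Rfc1 (chr5:65335640-65335839, minus strand, GRCm38.p6): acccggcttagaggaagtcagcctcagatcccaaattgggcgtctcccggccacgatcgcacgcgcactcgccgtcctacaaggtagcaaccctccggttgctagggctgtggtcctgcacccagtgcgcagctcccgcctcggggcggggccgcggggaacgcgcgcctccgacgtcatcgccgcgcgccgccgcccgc
In Mcm5 the words TTTCGCGC (plus strand) and TTTGGCGC (minus strand) overlapped between bases -153 and -142, counted back from -1 at the base before the start. Mcm6 had TTTGGCGC (plus strand) and TTTCGCGC (minus strand) overlapping between -110 and -99 and a further TTTGGCGC at -47. The word began at -138 in both Cdc6 and Pola1. The 12 genes with a word had a median log2 fold change between P4 and P1 of 1.99, and the 19 genes without one a median of 1.15. Between P2 and P4 the medians were -2.98 and -2.34. None of these medians was tested, and these are matches of letters and say nothing about binding.

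Between P1 and P4, both EF1alow but OSCARlow and OSCARmed, the replication genes were higher in P4. Of the 39 genes, 14 rose and 0 fell at an adjusted p under 0.01, while 9.44% of all genes tested rose and 14% fell. Changes of single genes are given as log2 fold changes ± SE from here on. The median over the 39 genes was 1.49, against 0.06 over all genes tested. Both P4 libraries lay above both P1 libraries for 33 genes and below for Gmnn, and 40.3% of all genes had both above. All 6 MCM subunits, 3 of the 4 leading and lagging strand polymerase genes, all 3 nucleotide supply genes, Rfc4 and Chaf1b were the 14 that rose. No gene of origin licensing, helicase activation, the polymerase alpha-primase, single-strand binding or Okazaki fragment joining passed. Fewer genes were called with any P1 or P4 library left out, where the lone library is assumed to vary like the other groups. The share of all genes called in those fits is not given. With any single library left out, the median over the 39 genes stayed between 1.13 and 1.69. The 5 lymphocyte markers moved the other way, with a sum of 703 and 205 CPM in P1 and 0.614 and 1.39 in P4, where Cd3e and Cd3g were at 0. Enterocyte markers summed to 32695 and 25400 CPM in P1 and 6910 and 2298 in P4, and Paneth markers to 19426 and 62221 and to 496 and 831. All 5 lymphocyte genes had both P4 libraries below both P1 libraries, and 4 passed the test. The part of these cells in the difference was not tested.

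Between P4 and P2, 38 of the 39 genes were lower in P2 and Rfc1 was higher. By their labels, the OSCAR ratio goes from medium to high here with EF1alow shared. At an adjusted p under 0.01, 23 genes fell and Rfc1 rose, while 6.31% of all genes tested fell and 8% rose. The median log2 fold change was -2.36, against 0.05 over all genes tested. No gene had overlapping libraries: both P2 libraries lay below both P4 libraries for 38 genes (33.5% of all genes) and above for Rfc1. All 14 genes that rose from P1 to P4 fell from P4 to P2, and 9 more fell, among them Cdc6, Cdt1, Mcm10, Gins2 and Lig1. Both comparisons use the same P4 libraries and are not separate evidence, and genes passing both were not counted over all genes. The Paneth sum stood at 496 and 831 CPM in P4 against 557180 and 394620 in P2, and the goblet sum at 8530 and 6902 against 44186 and 105590, and their part in the fall was not tested. Fewer genes were called with any P2 or P4 library left out, and the share of all genes called in those fits is not given. The median stayed between -2.62 and -2.30 with any single library left out.

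Between P1 and P2, the share of replication genes that passed was no higher than that of all genes. Of the 39, 7 passed (17.9%, against 29.1% of all genes tested), of which 6 fell (15.4%, against 15.2%) and Rfc1 rose (13.9% of all genes did). The levels still lay lower in P2, with a median log2 fold change of -1.01, against 0.01 over all genes tested. Both P2 libraries lay below both P1 libraries for 31 genes (38.6% of all genes) and above for 2 (38.4% of all genes). From P1 to P2, the mean sum went from 29047 to 1837 CPM for enterocyte genes, from 454 to 19.0 for lymphocyte genes, from 40823 to 475900 for Paneth genes and from 3028 to 74888 for goblet genes, and their part in the difference was not tested. The 6 that fell were Cdt1, Gmnn, Mcm10, Pola2, Rfc3 and Chaf1a. A fit with a replicate block, given at the end, called more than 7 of the 39 genes. No MCM subunit passed, with log2 fold changes between -1.97 for Mcm5 and -0.47 for Mcm7. The polymerase genes Pold1, Pold2 and Pole2 had log2 fold changes of 0.26 ± 0.41, 0.10 ± 0.32 and -0.21 ± 0.55 (SE). Fewer genes were called with any P1 or P2 library left out, and more with either P3 library left out. The share of all genes called in those fits is not given. With any single library left out, the median stayed between -1.15 and -0.86.

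**Figure D2:**
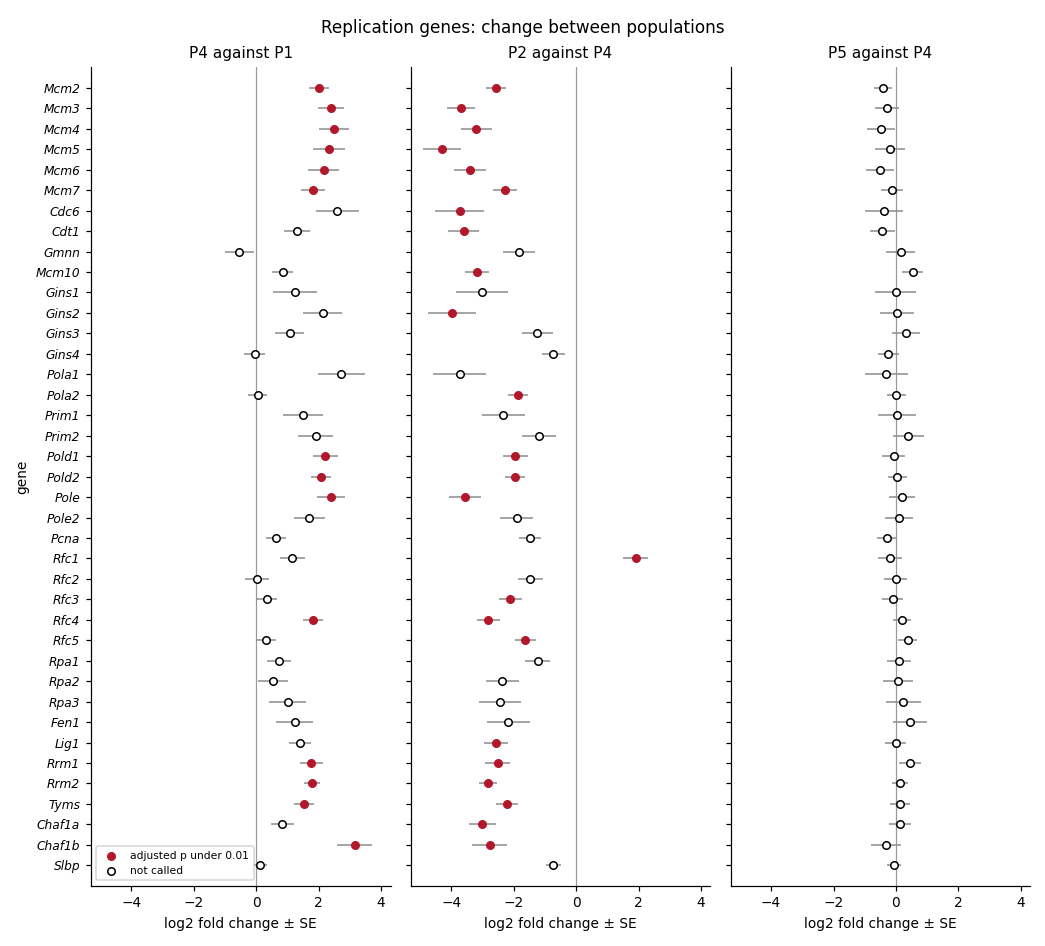
Points give the log2 fold change of each replication gene between 2 populations and bars its standard error, with filled points for an adjusted p under 0.01. From P1 to P4 the 14 filled points are all right of 0, from P4 to P2 all but Rfc1 lie left of 0, and between P4 and P5 no point is filled and all lie within 1 of 0.

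MCM2 to MCM7 form the ring helicase that unwinds DNA ahead of the fork. All 6 subunits passed both from P1 to P4 and from P4 to P2, comparisons that share the P4 libraries. Mcm6 (chr1:130228168-130256233, mm9) was counted at 39.6 and 48.2 CPM (P1), 19.5 and 17.4 (P2), 56.3 and 203 (P3), 169 and 222 (P4) and 119 and 155 (P5). Mcm5 (chr8:77633427-77652338) stood at 21.0 and 19.9 CPM (P1), 5.79 and 4.68 (P2), 33.4 and 128 (P3), 82.9 and 123 (P4) and 70.1 and 110.2 (P5). The P4 and P5 libraries lay above all P1 and P2 libraries for both genes, with P3 replicate 2 among the high libraries and P3 replicate 1 between. Mcm6 rose from P1 to P4 by 2.15 ± 0.48 (adjusted p = 0.00741) and fell to P2 (log2 fold change -3.41 ± 0.52, adjusted p = 0.00199). Mcm5 rose by 2.33 ± 0.52 (adjusted p = 0.00741) and had the largest fall to P2 of all 39 genes (log2 fold change -4.31 ± 0.61, adjusted p = 0.00143). Mcm4, the subunit with the largest change from P1 to P4, was at 14.6 and 13.7 CPM (P1), 11.9 and 5.80 (P2), 27.1 and 77.5 (P3), 64.7 and 94.2 (P4) and 50.4 and 63.8 (P5). It and the other 3 subunits rose by 1.82 (Mcm7) to 2.49 (Mcm4) and fell to P2 with log2 fold changes of -2.29 (Mcm7) to -3.69 (Mcm3). Mcm7 shares 12.6% of its exon bases with other genes, among them Ap4m1 and Cops6 on the opposite strand, and reads there could not be assigned without strand.

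CDC6 and CDT1 load the MCM ring onto origins, and geminin (Gmnn) binds CDT1 and blocks loading outside G1. Cdt1 was measured at 31.3 and 18.1 CPM (P1), 4.27 and 5.58 (P2), 21.8 and 53.1 (P3), 52.2 and 69.5 (P4) and 38.3 and 51.7 (P5). Cdc6 stood at 1.36 and 3.68 CPM (P1), 0.610 and 1.56 (P2), 3.19 and 11.1 (P3), 12.3 and 18.4 (P4) and 8.02 and 15.7 (P5). Gmnn was at 40.8 and 38.0 CPM (P1), 5.18 and 9.59 (P2), 13.3 and 45.3 (P3), 25.7 and 28.2 (P4) and 25.9 and 34.0 (P5). The loaders and their inhibitor did not follow the same order: Cdc6 was at most 3.68 CPM in P1 and P2, while Gmnn was near the level of P3 replicate 2 in both P1 libraries and lower in both P4 libraries. From P1 to P4 the log2 fold change was 2.60 ± 0.68 (adjusted p = 0.0145) for Cdc6, 1.30 ± 0.41 (adjusted p = 0.0307) for Cdt1 and -0.55 ± 0.46 (adjusted p = 0.356) for Gmnn. Relative to the median of all genes, Gmnn stood at -0.61, and at -0.60 with scaling by total counts. Cdt1 fell from P4 to P2 (log2 fold change -3.61 ± 0.48, adjusted p = 0.00114) and Cdc6 (log2 fold change -3.73 ± 0.79, adjusted p = 0.00774), and Gmnn was at -1.84 ± 0.51 (adjusted p = 0.0243). Between P1 and P2, Cdt1 fell (log2 fold change -2.31 ± 0.48, adjusted p = 0.00426) and Gmnn (log2 fold change -2.39 ± 0.51, adjusted p = 0.00502).

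MCM10 and the 4-part GINS complex turn the loaded ring into a working helicase. Mcm10 had 26.9 and 17.7 CPM (P1), 3.35 and 5.35 (P2), 26.5 and 46.4 (P3), 39.9 and 40.4 (P4) and 47.8 and 68.7 (P5). Gins2 had 2.54 and 4.01 CPM (P1), 0.914 and 0.892 (P2), 4.78 and 24.6 (P3), 12.8 and 16.1 (P4) and 12.8 and 16.7 (P5). Both fell from P4 to P2, Mcm10 (log2 fold change -3.17 ± 0.40, adjusted p = 0.000895) and Gins2 (log2 fold change -3.97 ± 0.77, adjusted p = 0.00537). Gins1 stood at 4.40 and 3.51 CPM (P1), 0.914 and 1.34 (P2), 1.06 and 6.88 (P3), 5.90 and 12.7 (P4) and 5.73 and 12.8 (P5), and Gins4 at 17.6 and 22.2 CPM (P1), 12.5 and 10.7 (P2), 10.1 and 21.3 (P3), 18.3 and 20.1 (P4) and 13.9 and 18.6 (P5). Gins4 overlapped between P1 and P4, with a log2 fold change of -0.05 ± 0.34 (adjusted p = 0.915), or -0.11 relative to the median of all genes, and it lay lower in both P2 libraries, at -0.73 ± 0.36 (adjusted p = 0.161). Gins1 and Gins2 rest on few counts, and 67.3% of the exon bases of Gins2 are shared with Gse1 on the opposite strand, so its level is uncertain.

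DNA polymerase alpha with primase lays down the RNA-DNA primers. Its catalytic subunit Pola1 had 7.45 and 5.35 CPM (P1), 4.27 and 2.23 (P2), 4.25 and 40.2 (P3), 43.0 and 41.5 (P4) and 23.0 and 45.2 (P5), and the regulatory subunit Pola2 had 34.7 and 38.0 CPM (P1), 9.14 and 11.4 (P2), 22.8 and 38.6 (P3), 31.4 and 43.7 (P4) and 30.8 and 45.1 (P5). Pola1 in P3 was near P1 in replicate 1 and near P4 in replicate 2. From P1 to P4, neither passed, with log2 fold changes of 2.72 ± 0.75 (adjusted p = 0.0181) for Pola1 and 0.05 ± 0.31 (adjusted p = 0.912) for Pola2. Towards P2, Pola2 fell (log2 fold change -1.86 ± 0.33, adjusted p = 0.00379), and Pola1 was at -3.73 ± 0.84 (adjusted p = 0.0106), just short of the threshold. The primase genes did not pass in either comparison, with Prim1 at 1.49 and Prim2 at 1.90 from P1 to P4 and -2.34 and -1.19 from P4 to P2.

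Polymerase epsilon (Pole, Pole2) copies the leading strand and polymerase delta (Pold1, Pold2) the lagging strand. Pold2 was at 10.5 and 18.9 CPM (P1), 14.9 and 16.5 (P2), 56.3 and 73.7 (P3), 51.8 and 71.3 (P4) and 55.7 and 71.7 (P5). Pole was at 8.81 and 8.53 CPM (P1), 4.88 and 2.90 (P2), 15.4 and 45.1 (P3), 44.5 and 46.6 (P4) and 40.9 and 63.4 (P5). Every P4 and P5 library lay at least as high as 40.9 CPM for Pole, and no P1 or P2 library exceeded 8.81. Pole rose from P1 to P4 by 2.39 ± 0.46 (adjusted p = 0.00377), Pold1 by 2.21 ± 0.40 (adjusted p = 0.00288) and Pold2 by 2.07 ± 0.31 (adjusted p = 0.00164). All 3 fell to P2, with log2 fold changes of -3.57 for Pole, -1.96 for Pold1 and -1.97 for Pold2. Pole2, the second subunit of polymerase epsilon, was at 1.70 ± 0.49 from P1 to P4 and -1.91 ± 0.52 from P4 to P2 and passed neither test.

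PCNA is the ring that holds polymerases on DNA, and RFC1 to RFC5 form the loader that opens it. Rfc1 (chr5:65653091-65726909, minus strand, mm9), the large subunit, was counted at 18.1 and 41.5 CPM (P1), 269 and 231 (P2), 32.4 and 65.9 (P3), 63.9 and 68.8 (P4) and 54.3 and 61.3 (P5). Both P2 libraries lay above all 8 others, and the P1 mean was lowest. Rfc2, a small subunit, showed the reverse in P2, with 38.97 and 47.8 CPM (P1), 12.5 and 19.0 (P2), 22.3 and 54.0 (P3), 39.6 and 47.9 (P4) and 35.1 and 51.6 (P5). Rfc1 rose from P4 to P2 by 1.92 ± 0.40 (adjusted p = 0.00739), from P1 to P2 by 3.07 ± 0.42 (adjusted p = 0.000656) and from P3 to P2 by 2.32 ± 0.41 (adjusted p = 0.00251). Of the small subunits, Rfc3, Rfc4 and Rfc5 fell from P4 to P2 with log2 fold changes of -2.11, -2.81 and -1.64, and Rfc2 was at -1.46 ± 0.40 (adjusted p = 0.0244). Over the alternatives, the log2 fold change of Rfc1 lay between 2.57 and 3.79 from P1 to P2. From P4 to P2 it lay between 0.775 and 1.995, and this rise did not pass in some of the alternatives. With scaling by total counts, the P4 to P2 value was 0.78, or 1.84 relative to the median of all genes. No other gene shares exon bases with Rfc1 and no copy of its transcript was found elsewhere in the genome. With Rfc1 in the sum, the level of this role was highest in P2 (317 and 281 CPM) and not in P4 (212 and 241). Pcna was lower in P2 than in P4, with 22.3 and 12.7 CPM against 46.2 and 50.8 and a log2 fold change of -1.48 ± 0.34 (adjusted p = 0.0117). As 82.8% of its transcript matches another place in the genome at 98% identity or more and reads with several alignments were not counted, the level of Pcna is uncertain. Rfc4 shares 12.7% of its exon bases with Eif4a2 and Rfc5 10.7% with Wsb2, both on the opposite strand.

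**Figure D3:**
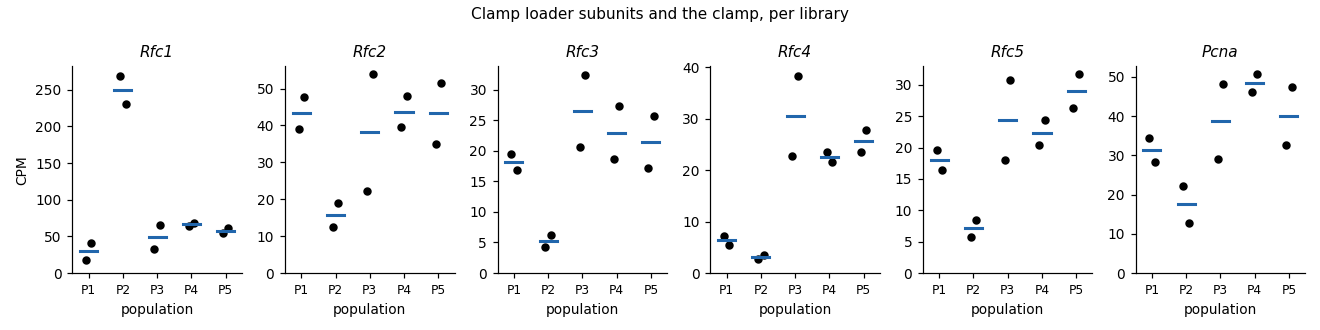
Points give CPM in each library and lines the mean of the 2 libraries of a population, for the 5 clamp loader subunits and Pcna. Rfc1 reaches 269 and 231 CPM in P2 and at most 68.8 elsewhere, while the other 5 genes are lowest in P2.

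RPA (Rpa1, Rpa2, Rpa3) coats the single strands, and FEN1 and DNA ligase I (Lig1) trim and join the Okazaki fragments. Rpa1 was at 28.0 and 28.6 CPM (P1), 20.1 and 19.9 (P2), 23.4 and 62.6 (P3), 37.3 and 56.6 (P4) and 42.6 and 57.1 (P5). Rpa3 was at 6.44 and 6.69 CPM (P1), 1.52 and 3.12 (P2), 6.37 and 31.3 (P3), 11.7 and 14.6 (P4) and 16.4 and 14.5 (P5). No RPA gene passed between P1 and P4 or between P4 and P2, although all 3 had both P2 libraries below both P4 libraries, with log2 fold changes from -2.45 to -1.23. Lig1 had 25.1 and 25.6 CPM (P1), 11.9 and 10.9 (P2), 38.8 and 68.2 (P3), 50 and 84.2 (P4) and 50.8 and 83.2 (P5). It fell from P4 to P2 (log2 fold change -2.56 ± 0.38, adjusted p = 0.00179) and was at 1.41 ± 0.35 (adjusted p = 0.012) from P1 to P4, short of the threshold. Fen1 was counted at 1.86 and 1.17 CPM (P1), 0.914 and 0.669 (P2), 2.65 and 4.44 (P3), 3.19 and 3.97 (P4) and 3.44 and 6.35 (P5). These are the lowest levels per kb of exon of all 39 genes (1.18 CPM per kb over the libraries, against 24.3 for Rfc2), and 84.2% of the exon bases of Fen1 are shared with genes on the opposite strand, where reads that could belong to either gene were not counted.

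RRM1 and RRM2 are the subunits of ribonucleotide reductase, which makes deoxynucleotides, and TYMS makes thymidylate. Rrm1 was at 24.6 and 30.8 CPM (P1), 18.6 and 14.5 (P2), 71.1 and 149 (P3), 87.3 and 100.7 (P4) and 94.3 and 161 (P5). Rrm2 was at 11.5 and 7.03 CPM (P1), 4.57 and 4.46 (P2), 47.2 and 50.4 (P3), 31.2 and 32.8 (P4) and 34.3 and 35.6 (P5). In both, the P3, P4 and P5 libraries lay above the P1 and P2 libraries. From P1 to P4, Rrm2 rose by 1.79 ± 0.26 (adjusted p = 0.0015), Rrm1 by 1.76 ± 0.37 (adjusted p = 0.00572) and Tyms by 1.52 ± 0.32 (adjusted p = 0.00594). All 3 fell from P4 to P2, in the same order with log2 fold changes of -2.82, -2.51 and -2.21. Over the alternatives, the log2 fold change of Rrm2 from P4 to P2 lay between -3.955 and -2.79. In that comparison 0 of the 39 genes took the other sign in any alternative.

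The histone chaperone CAF-1 (Chaf1a, Chaf1b) places new histones behind the fork, and SLBP binds the mRNAs of replication histones. Chaf1b was at 3.05 and 2.34 CPM (P1), 4.27 and 2.90 (P2), 7.96 and 28.0 (P3), 23.1 and 25.3 (P4) and 14.6 and 23.8 (P5). Slbp was at 47.3 and 41.8 CPM (P1), 24.4 and 33.2 (P2), 40.3 and 52.2 (P3), 45.3 and 50.5 (P4) and 41.1 and 50.3 (P5). Slbp varied least of the 39 genes, and Chaf1b was at most 4.27 CPM in P1 and P2 and at least 14.5 in P4 and P5. Chaf1b rose from P1 to P4 by 3.16 ± 0.56 (adjusted p = 0.00279), the largest change of the 39 genes in that comparison, and fell to P2 (log2 fold change -2.77 ± 0.57, adjusted p = 0.00676). Chaf1a was at 0.83 ± 0.37 from P1 to P4 and fell to P2 (log2 fold change -3.01 ± 0.44, adjusted p = 0.00155). Slbp was at 0.11 ± 0.23 from P1 to P4 and -0.73 ± 0.23 from P4 to P2, and 28.7% of its transcript has a near-identical copy elsewhere.

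**Figure D4:**
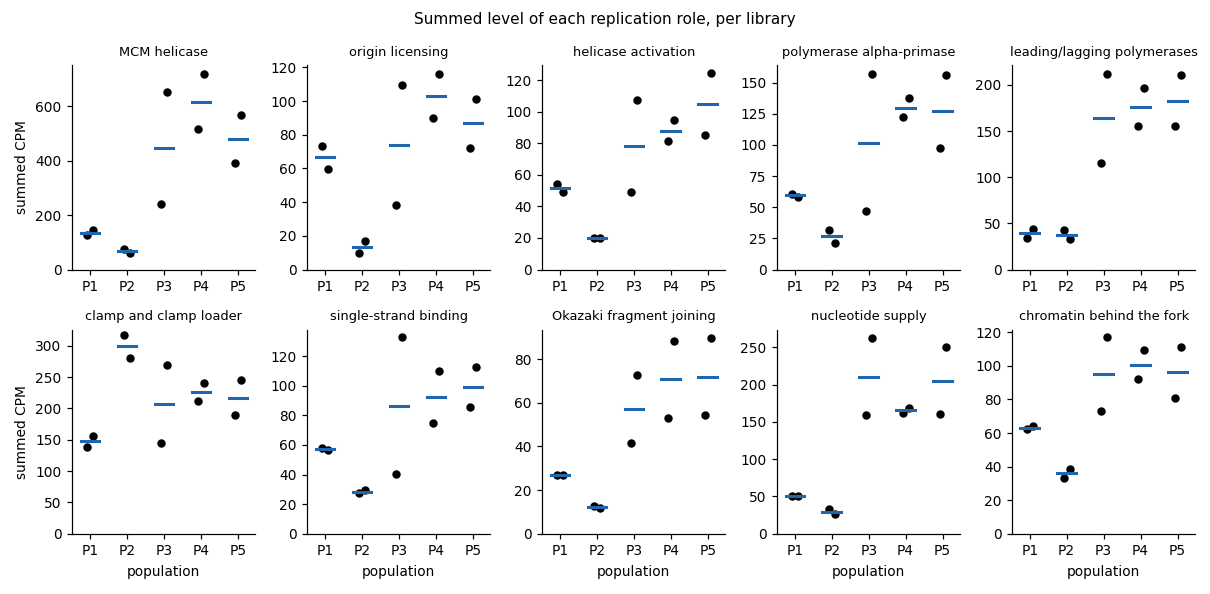
Points give the summed CPM of the genes of each role in each library and lines the mean of the 2 libraries. The MCM helicase sum is 125 and 145 CPM in P1, 74.7 and 60.9 in P2, and 517 and 718 in P4, and the clamp and clamp loader sum is the exception with its highest values in P2.

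P4 and P5 share a medium OSCAR ratio and differ in EF1a, and no difference between their replication genes was detected. Of the 39 genes, 0 passed edgeR's test (0% of all genes tested passed), 0 had an unadjusted p under 0.05 (350 of all genes did, 2.55%), and DESeq2 called 0 of them and 27 of all genes. The median log2 fold change was 0.02, and 37 of the 39 genes lay within 0.5 of 0 with a median standard error of 0.385. As no gene of all those tested passed, the test cannot show that levels were equal. Of the 39 genes, 20 lay above 0 and 19 below. All 6 MCM subunits lay below 0, with a median of -0.35. Libraries overlapped for 31 genes, and for 9421 of all 13706 genes tested. The furthest values were Mcm10 at 0.54 ± 0.33, Fen1 at 0.45 ± 0.55 and Rrm1 at 0.44 ± 0.36 on one side, and Mcm6 at -0.51 ± 0.46, Mcm4 at -0.48 ± 0.44 and Cdt1 at -0.44 ± 0.40 on the other. Replicate 2 was above replicate 1 for 36 genes in P4 and 38 in P5, and the same count over all genes was not made. Over all genes tested, the differences between replicates 1 and 2 in P4 and in P5 correlated at 0.55. The main fit had no replicate term. In at least 1 alternative, 24 of the 39 genes took the other sign.

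A list of 25 genes of mitosis showed other values in the same libraries. Most of these genes act after S phase, in spindle assembly and chromosome separation. Their summed level was 1086 and 1150 CPM in P4 and 2340 and 3748 in P5, against 602 and 578 (P1), 351 and 264 (P2) and 1551 and 2495 (P3). All 25 had both P5 libraries above both P4 libraries (16% of all genes did) and log2 fold changes from 1.05 for Plk1 to 2.03 for Ube2c, yet 0 passed edgeR's test. The smallest adjusted p was 0.232, for Aurka, Cdc20 and Hmmr (named after their values were seen). All 25 had an unadjusted p under 0.05 (2.55% of all genes did). Between P1 and P4, 1 of the 25 mitosis genes rose (9.44% of all genes did). It was Mki67, the gene of the proliferation marker Ki67, at 1.53 ± 0.36 (adjusted p = 0.0088), and the median over the 25 was 0.80. Between P4 and P2, 23 of the 25 fell (6.31% of all genes did), among them Ccnb1 and Ccnb2, the B-type cyclins. Plk1, a mitotic kinase, rose by 2.32 ± 0.34 (adjusted p = 0.00171, where 8% of all genes rose), with means of 195 CPM in P2 and 39.1 in P4.

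**Figure D5:**
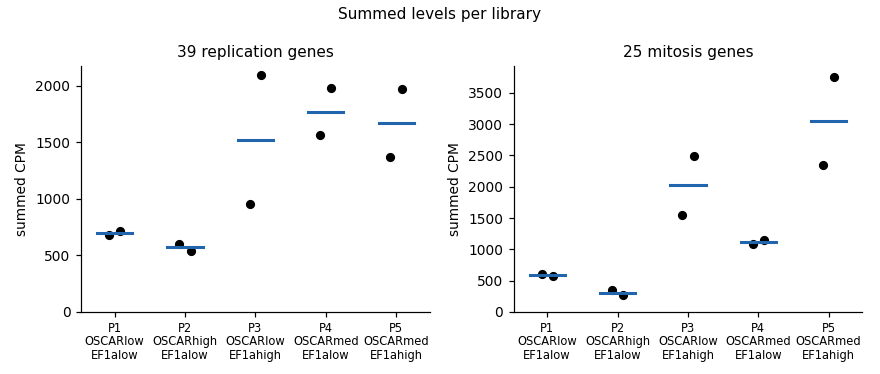
Points give the summed CPM of the 39 replication genes and of 25 mitosis genes in each library, and lines the mean of the 2 libraries. Replication sums in P4 (1561 and 1981) and P5 (1375 and 1970) overlap, while mitosis sums in P5 (2340 and 3748) lie above those in P4 (1086 and 1150).

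By their labels, P3 and P1 share a low OSCAR ratio and differ in EF1a, which does not hold if the labels P2 and P3 are exchanged. The replication genes were higher in P3: 9 rose and 0 fell (8.01% of all genes tested rose and 7.54% fell), and the median log2 fold change was 1.56 against -0.03 over all genes. The 9 were Mcm3, Mcm7, Pold1, Pold2, Rfc4, Rrm1, Rrm2, Tyms and Chaf1b. The P3 libraries disagreed about the size. All 39 genes were higher in replicate 2 than in replicate 1, by 2.09-fold in the median gene, from 1.07-fold for Rrm2 to 9.46-fold for Pola1. In replicate 2, 38 genes lay above both P1 libraries, and in replicate 1 22 did. The same counts over all genes were not made, so whether the 39 genes stand apart in this is not known. Lymphocyte markers (118 and 2.44 CPM), enterocyte markers (17633 and 5406 CPM), the mitochondrial share and stem cell genes (456 and 2565 CPM) differed between the same 2 libraries, and their part in the difference was not tested. More genes were called without P3 replicate 1, and fewer without P3 replicate 2 or with any P1 or P4 library left out. The share of all genes called in those fits is not given. The median was 0.57 without P3 replicate 2. A fit of these 2 populations alone called 0 genes, and scaling by total counts left 1.

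Between P5 and P3, both EF1ahigh by their labels, 0 of the 39 genes passed edgeR's test (0% of all genes tested passed). Of the 39, 0 had an unadjusted p under 0.05 (1587 of all genes did, 11.6%), and DESeq2 called 0 of them and 39 of all genes. The median log2 fold change was 0.09. Libraries overlapped for 37 of the 39 genes, and for 8151 of all 13706 genes tested. Gins1 (1.07 ± 0.72), Pole (0.74 ± 0.43) and Mcm10 (0.65 ± 0.34) lay highest, and Rrm2 (-0.49 ± 0.25), Rpa3 (-0.35 ± 0.56) and Rfc3 (-0.33 ± 0.34) lowest. Of the 39 genes, 35 took the other sign in at least 1 alternative. Rfc3 had 19.5 and 16.9 CPM (P1), 4.27 and 6.25 (P2), 20.7 and 32.4 (P3), 18.7 and 27.3 (P4) and 17.2 and 25.6 (P5). Without P3 replicate 2 the median over the 39 genes was 0.85, and without P3 replicate 1 it was -0.30.

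Most replication genes were also lower in P2 than in P3. Here 22 genes fell and Rfc1 rose (10.6% and 10.4% of all genes tested did), with a median log2 fold change of -2.25. The largest falls were Gins2 at -4.07 ± 0.78 and Mcm5 at -3.98 ± 0.61. Fewer genes were called with either P2 library left out or without P3 replicate 2, and 8 in a fit of these 2 populations alone. The share of all genes called in those fits is not given. With any single library left out, the median stayed between -2.64 and -1.49. The comparisons of P2 with P4, P1 and P3 share the P2 libraries and are not separate evidence.

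The step from EF1alow to EF1ahigh, as labelled, was set side by side at the 2 OSCAR ratios with an interaction term. If the labels P2 and P3 are exchanged, P1 to P3 is not an EF1a step and this term does not compare 2 such steps. Of the 39 genes 0 passed (0.81% of all genes tested did), and 16 had an unadjusted p under 0.05 (34% of all genes did). A fit with a replicate block, given at the end, called some of the 39. The median difference was -1.35, with 35 genes below 0, as the step from P1 to P3 was higher than that from P4 to P5. Rrm2 was nearest to the threshold at -2.27 ± 0.36 (adjusted p = 0.0106). DESeq2 called 8 of the 39 genes, and its share of all genes is not given here. The median was -2.01 without P3 replicate 1 and -0.54 without P3 replicate 2.

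A further 39 genes of replication, among them the origin recognition complex, Cdc45, the fork protection and checkpoint proteins and salvage enzymes, were described in the same way. From P1 to P4 their median log2 fold change was 1.47, and 8 rose (20.5%, against 9.44% of all genes) and 3 fell (7.69%, against 14%), where 0 of the first 39 fell. From P4 to P2 the median was -1.90, and 15 fell (38.5%, against 6.31%) and 0 rose. From P1 to P2 the median was -0.46, and 5 fell (12.8%, against 15.2%). Libraries overlapped for 13 of these genes, and for 3151 of all 13706 genes tested. Uhrf1, which reads methylation behind the fork, had the largest fall to P2 (log2 fold change -4.68 ± 0.58, adjusted p = 0.000891), followed by Clspn, the checkpoint adaptor claspin (log2 fold change -4.29 ± 0.58, adjusted p = 0.00121). Pold4, the small subunit of polymerase delta, fell from P1 to P4 (log2 fold change -1.99 ± 0.34, adjusted p = 0.00241), and so did Pole3, a histone-fold subunit of polymerase epsilon chosen after its values were seen (log2 fold change -0.996 ± 0.19, adjusted p = 0.00408).

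Of 13 genes of the E2F and pocket protein families, E2f6 rose from P1 to P4 by 1.77 ± 0.30 (adjusted p = 0.00228), and Tfdp1, the dimer partner of the E2Fs (chosen after its values were seen), by 1.08 ± 0.21 (adjusted p = 0.00444). Rbl2, which encodes p130, fell from P1 to P4 (log2 fold change -1.63 ± 0.21, adjusted p = 0.00115), and so did Rb1 (log2 fold change -1.29 ± 0.29, adjusted p = 0.00752). Mean levels of Rbl2 were 111 CPM in P1, 67.5 in P2 and 35.8 in P4. E2f1 had low levels, with means of 2.35, 4.498 and 13.4 CPM in P1, P2 and P4 and a log2 fold change of 2.51 ± 0.87 (adjusted p = 0.044) from P1 to P4. E2f8, a repressor E2F of S phase, fell from P4 to P2 (log2 fold change -4.07 ± 0.44, adjusted p = 0.000559), as did its relative E2f7 (log2 fold change -3.20 ± 0.54, adjusted p = 0.00292) and Tfdp1 (log2 fold change -1.37 ± 0.22, adjusted p = 0.00248). Between P4 and P5 none of the 13 passed edgeR's test, 0 had an unadjusted p under 0.05, and log2 fold changes lay between -0.53 and 0.61.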

How the data were processed

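Crypt cells were sorted into 5 populations by the study's authors, with 2 libraries each, and the authors deposited 1 table of read counts per library: reads were aligned to mm9 with TopHat 2.1.0 and counted over exons without strand by HTSeq 0.11.2 (intersection-nonempty), read quality was checked with FastQC 0.11.5, and reads with several alignments were not counted. Counts were used as deposited. Then 206 ribosomal RNA names were removed, and rows without a gene name held at most 0.00039% of the reads listed and were left out. Genes passing edgeR's filterByExpr (13706) were fitted with edgeR 4.0.16 (R 4.3.3, TMM scaling, quasi-likelihood test, 5 population means over 10 libraries, 5 residual degrees of freedom), with Benjamini-Hochberg adjustment over all of them and a call at an adjusted p under 0.01. Every adjusted p printed comes from this test unless another tool is named. Values after ± are approximate standard errors on the log2 scale. They were derived as the absolute log2 fold change divided by the square root of edgeR's F statistic. CPM use the TMM effective library size. The fit was tested on simulated counts. Alternatives were other scaling, no filter, DESeq2 1.42.0, another threshold, removal of mitochondrial genes, a replicate block, only the populations compared and leaving out each library. Leaving out both P3 libraries was added after seeing the data.

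The members and lists were chosen with earlier results of these data known. All libraries are given for the most abundant gene of each role and for the 3 largest and 3 smallest log2 fold changes in P4 against P1, P2 against P4, P5 against P4 and P5 against P3. In the other lists, genes among the 3 largest or smallest changes of a comparison could be named. Exon overlaps came from the NCBIM37 annotation, near-identical copies from blastn 2.17.0 (at least 75 bases at 98% identity), and promoters from RefSeq. One gene of the other lists is not reported here.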

Additional observations from a re-analysis of the deposited data

Results flagged for a closer look

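Reads that the count tables listed outside any gene were not used in the comparisons. Reads in no annotated feature made up 2.19% (P3 replicate 1) to 12.8% (P4 replicate 1) of the reads listed, and ambiguous reads 0.425% (P3 replicate 1) to 1.39% (P1 replicate 1). Reads with several alignments made up 11.6% (P1 replicate 1) to 41.7% (P3 replicate 1). Rows without a gene name held 0.000147% (P2 replicate 1) to 0.00039% (P5 replicate 2). With 2 libraries per population no library was tested as an outlier. In edgeR's test of the difference between the 2 EF1a steps, as labelled, 0 replication genes passed. In that test 16 had an unadjusted p under 0.05 (34% of all genes did). DESeq2 called 8 replication genes, and its share of all genes is not given here.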

How the results depend on the processing

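The median over the 39 replication genes kept its sign in every alternative run for P4 against P1 (1.13 to 2.18), P2 against P4 (-3.50 to -2.30), P2 against P1 (-1.45 to -0.86), P3 against P1 (0.57 to 1.86) and P2 against P3 (-2.64 to -1.49), and changed it for P5 against P4 (-0.27 to 0.23) and P5 against P3 (-0.30 to 0.90). The counts of called genes moved more, and the cause was not tested. No share of all genes under the same setting stands beside these counts or those with a library left out. A shift of the replication genes thus cannot be told apart from one of all genes. Without a filter on low counts, 35 genes passed over the 5 populations, 23 for P4 against P1, 15 for P2 against P1, 20 for P3 against P1 and 16 for the interaction. At an adjusted p under 0.05 the counts were 22 for P4 against P1, 14 for P2 against P1, 35 for P2 against P3, 19 for P3 against P1 and 10 for the interaction. DESeq2 called 11 for P2 against P1, 14 for P3 against P1 and 8 for the interaction, and its size factors in edgeR, like removal of mitochondrial genes, gave 1 for the interaction. A fit of only the 2 populations compared gave 8 for P2 against P3 and 0 for P3 against P1. Leaving out both P3 libraries gave 12 for P2 against P1.

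Scaling by total counts moved the median of all genes by 0.69 for P4 against P1, to 0.75, and to -1.07 for P2 against P4 and 0.92 for P5 against P3. Relative to all genes, the 39 genes then stood at 1.43 for P4 against P1 and -2.43 for P2 against P4, and 1 gene was called for P3 against P1. The sign of the log2 fold change turned under that scaling for Gins4 (0.64) and Gmnn (0.14) in P4 against P1 and for Rfc3 (0.56), Rpa3 (0.38) and Rrm2 (0.46) in P5 against P3. Relative to the median of all genes these 5 stayed below 0 (Gins4 -0.11, Gmnn -0.60, Rfc3 -0.37, Rpa3 -0.54, Rrm2 -0.46). Gins4 was at 0.014 without a filter and at 0.15 without mitochondrial genes, which moved all genes by 0.20. Over all alternatives, the number of the 39 genes that took the other sign at least once was 35 for P5 against P3, 24 for P5 against P4, 13 for P3 against P1, 4 each for P4 against P1 and P2 against P1, 2 for P2 against P3 and 0 for P2 against P4.

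With 1 library left out, the called genes ranged from 12 to 33 over the 5 populations, 0 to 20 for P4 against P1, 3 to 33 for P2 against P4, 1 to 12 for P2 against P1, 0 to 18 for P3 against P1 and 7 to 29 for P2 against P3, with 0 for P5 against P4, P5 against P3 and the interaction. Over the 5 populations 12 were left without either P2 library and 14 without P1 replicate 1. Among the genes named for their size of change, signs turned in P4 against P1 for Gins4 (-0.21 to 0.16, above 0 without P1 replicate 2 or P4 replicate 1) and Rfc2 (-0.13 to 0.21, below 0 without P1 replicate 1 or P4 replicate 2), in P5 against P3 for Rfc3 (-0.63 to 0.056) and Rpa3 (-0.997 to 1.28), both above 0 without P3 replicate 2, and in P5 against P4 for Fen1 (-0.057 to 0.83, below 0 without P5 replicate 2).

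The labels give same-numbered libraries a number and do not say whether they came from the same mice. Their deviations correlated between -0.06 and 0.55 (median 0.25) over 10 pairs of populations, above 0.1 in 9, and a fit with the replicate block called 12 genes for P2 against P1 and 3 for the interaction, and 17 for P4 against P1 and 29 for P2 against P4. Counts under 10 limit the values of 9 genes.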
